A study of Mus musculus with 12 samples.

Results

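Transcript levels of p53 and of its direct transcriptional targets were measured in mouse kidney. The group held 10 genes, chosen by name from the deposited table of 57490 genes: Trp53, which encodes p53, and its targets Mdm2, Cdkn1a, Ccng1, Phlda3, Bax, Bbc3, Eda2r, Aen and Zmat3. All 10 were found in the table, and all 10 were among the 17431 genes with enough counts to be tested. The study examined kidney changes in diabetic nephropathy and the effect of Yiqi Huoxue Yangyin Decoction (YHY), a water extract of medicinal plants. Kidney mRNA was sequenced from 12 male mice aged 13 weeks, 4 in each of 3 groups, with 1 mouse per library. Ctrl mice were db/m animals of the BKS strain, which the growth protocol describes as heterozygous (db/+) and the genotype label as wild-type. Model mice were db/db animals (BKS.Cg-Dock7m +/+ Leprdb/JNju), which carry a mutated leptin receptor on both chromosomes, become obese and diabetic, and had been selected for high random blood glucose. YHY mice were db/db animals that received YHY at 6.24 g/mL by gavage once daily for 4 weeks, with 50 µL given for each 10 g that a mouse weighed, while Ctrl and Model mice received the same volume of purified water. The labels name whole kidney tissue and the series description names renal cortex.

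The p53 protein is a transcription factor that is held at a low level by the ubiquitin ligase Mdm2 and accumulates when DNA is damaged or cells are stressed. It then binds response elements made of paired decameric half-sites and raises genes that stop the cell cycle, repair DNA or start apoptosis, and it raises Mdm2 itself, which closes a negative feedback loop. In the kidney, p53 and its target p21, the product of Cdkn1a, are known from acute tubular injury and from senescence of tubular cells and podocytes, and because p53 is controlled mainly as a protein, the transcript of Trp53 does not report its activity.

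Between 29632718 and 33276634 reads were counted on genes in each Ctrl mouse, between 24415658 and 29784346 in each Model mouse and between 25149764 and 29698342 in each YHY mouse. Levels are given as CPM, counts of a gene per megacount of the library scaled by TMM (trimmed mean of M-values), and as FPKM, which further divides by gene length, where genes are compared with each other. Groups were compared by the quasi-likelihood test of edgeR, two-sided, in a single fit of the 12 mice, and a gene was called when its P, adjusted by the Benjamini-Hochberg method over all genes tested, was under 0.05. For each member, an exact permutation test of CPM, two-sided, was added, and its smallest possible P for 4 mice against 4 is 0.0286. The libraries differed in composition. Transcripts of the mitochondrial genome took 19.5% ± 2.12 of the counts in Ctrl (SD, n = 4), whereas their share was 52.2% ± 7.68 in Model and 56.8% ± 5.21 in YHY. Model 1 had the lowest share of the db/db mice, 41.2%, and the 95% Wilson interval of any single mouse was at most 0.04 percentage points wide, which covers counting error only. The part of this difference in the results was not tested beyond the other ways of scaling described with the results.

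Per unit length, the 10 transcripts spanned a wide range of levels. In Ctrl, Ccng1 was the most abundant at 46.1 ± 1.94 FPKM (SD, n = 4), followed by Bax at 20.9 ± 3.35. Trp53, Mdm2 and Phlda3 stood at 5.13, 4.5 and 4.29 FPKM, and Cdkn1a (2.37 ± 1.44) and Aen (2.01 ± 0.316) below them, with overlap between neighbours in this order. Zmat3 (1.39 ± 0.0793) and Bbc3 (0.978 ± 0.149) were lower on average, with Cdkn1a of Ctrl 2 and Ctrl 3 (1.26 and 0.986) reaching down among them, and Eda2r was the lowest at 0.0425 ± 0.0126 FPKM. In Model, Bax (32.6 ± 2.01 FPKM) and Ccng1 (28.5 ± 2.6) led the order with overlapping ranges, and Mdm2, Phlda3, Cdkn1a and Trp53 followed in a run of overlapping neighbours from 7.17 down to 3.66 FPKM. In YHY, Bax (26.5 ± 2.97), Ccng1 (16.8 ± 1.25) and Cdkn1a (10.1 ± 2.99 FPKM) held the first 3 places without overlap among them, although Cdkn1a overlapped Mdm2 (8.84 ± 2.2), so that Cdkn1a stood at rank 6 in Ctrl, rank 5 in Model and rank 3 in YHY. Averaged over the 12 mice, Ccng1 and Bax lay at the 94.1st and 93.3rd percentile of FPKM among the genes tested, Trp53 at the 69th and Eda2r at the 2.73rd.

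**Figure D1:**
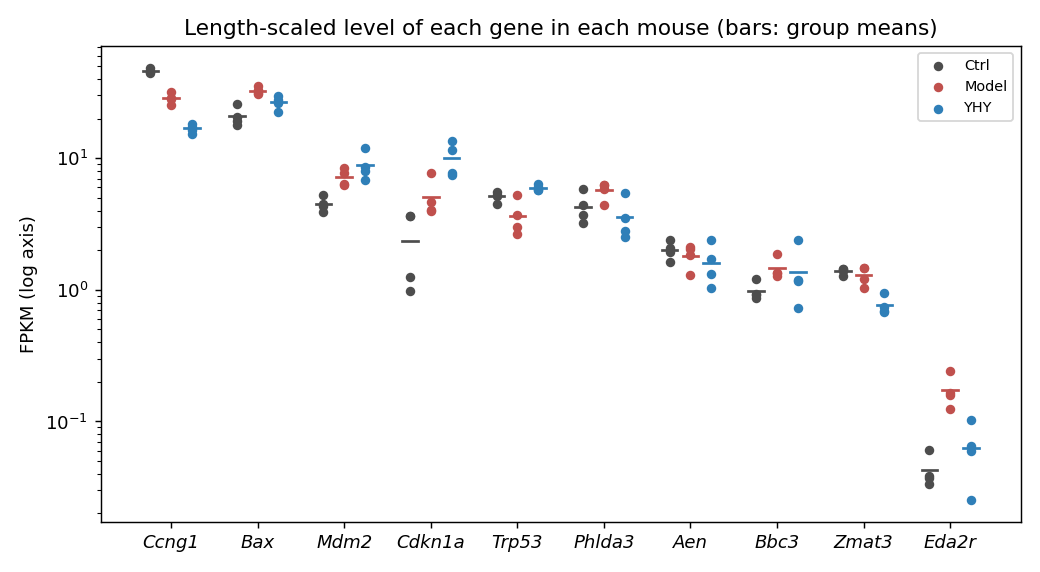
Level of each of the 10 genes in FPKM on a log axis, with a point for each mouse and a bar for the mean of each group of 4. Ccng1 and Bax lie highest and Eda2r lowest in all 3 groups, and the point clouds of Ccng1 step down from Ctrl (46.1) over Model (28.5) to YHY (16.8).

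The promoter windows of the genes were searched for the p53 half-site, the decamer named by its published consensus, as exact matches on both strands. The windows, which reach from 250 bases before to 50 bases after a gene start, were taken from RefSeq (build GRCm38.p6), and 9 of the 10 genes matched, with 13 windows. A half-site was present in 7 of these windows, belonging to 6 genes, and in 2745 of all 32851 windows (8.36%). A pair of half-sites with a spacer of at most 13 bases was present in 1 member window, that of Cdkn1a, and in 24 of all windows (0.0731%). Windows are shown for the genes that are called in at least 1 comparison and hold a match, with the half-sites in capitals. In Trp53 the match began 75 bases before the gene start, in Mdm2 186, in Ccng1 185 and in Bax 201 bases before it, and in Cdkn1a the matches began 73 and 51 bases before it.
Trp53 (chr11:69580109-69580408, + strand): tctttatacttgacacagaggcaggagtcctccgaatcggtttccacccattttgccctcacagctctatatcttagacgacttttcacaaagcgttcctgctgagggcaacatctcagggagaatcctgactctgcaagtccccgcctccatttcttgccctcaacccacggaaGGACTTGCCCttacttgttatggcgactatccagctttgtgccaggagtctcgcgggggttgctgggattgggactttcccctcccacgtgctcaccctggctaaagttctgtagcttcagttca
Mdm2 (chr10:117710709-117711008, - strand): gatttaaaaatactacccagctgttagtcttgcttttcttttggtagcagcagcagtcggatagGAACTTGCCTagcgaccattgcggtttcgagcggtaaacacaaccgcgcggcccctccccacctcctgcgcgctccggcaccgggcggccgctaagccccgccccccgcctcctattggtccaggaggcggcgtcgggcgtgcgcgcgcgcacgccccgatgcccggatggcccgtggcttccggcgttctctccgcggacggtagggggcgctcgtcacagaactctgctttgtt
Cdkn1a (chr17:29090729-29091028, + strand): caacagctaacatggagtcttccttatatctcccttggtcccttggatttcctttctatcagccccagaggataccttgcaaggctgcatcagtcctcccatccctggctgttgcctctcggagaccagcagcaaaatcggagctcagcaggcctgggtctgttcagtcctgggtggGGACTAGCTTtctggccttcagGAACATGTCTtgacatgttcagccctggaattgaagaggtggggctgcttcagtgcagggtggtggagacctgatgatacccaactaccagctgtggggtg
Ccng1 (chr11:40755237-40755536, - strand): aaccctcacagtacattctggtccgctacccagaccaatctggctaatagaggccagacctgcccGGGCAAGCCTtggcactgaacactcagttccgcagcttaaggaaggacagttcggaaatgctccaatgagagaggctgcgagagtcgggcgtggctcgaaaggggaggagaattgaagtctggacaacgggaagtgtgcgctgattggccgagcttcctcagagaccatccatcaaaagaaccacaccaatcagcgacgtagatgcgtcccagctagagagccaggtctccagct
Bax (chr7:45466849-45467148, - strand): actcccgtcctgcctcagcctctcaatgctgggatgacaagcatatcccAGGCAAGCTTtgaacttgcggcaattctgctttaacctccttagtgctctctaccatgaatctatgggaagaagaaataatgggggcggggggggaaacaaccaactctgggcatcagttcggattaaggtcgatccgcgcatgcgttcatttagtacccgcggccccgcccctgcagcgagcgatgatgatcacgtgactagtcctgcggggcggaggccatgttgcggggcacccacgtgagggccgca

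A match describes the letters of a window and does not show binding. Aen held 1 further match in overlapping windows of 2 gene starts, 121 bases before one of them. The letters of the half-site were not found in the windows of Phlda3, Bbc3 and Eda2r, nor in that of the other start of Cdkn1a, which says nothing about sites elsewhere in these genes.

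The comparison of Model with Ctrl asks which transcripts differ between db/db and db/m mice. Diabetes, obesity and the mutated leptin receptor cannot be told apart in it. Of the 10 genes, 4 were higher in Model (Eda2r, Cdkn1a, Mdm2 and Bax) and 2 were lower (Ccng1 and Trp53), against 19.6% of all genes tested that were higher and 18.5% that were lower. Eda2r passed the filter on low counts only through the Model mice, so that its place in this count depended on the group with the higher level. By the limits in the study's methods, more than 1.2-fold and P below 0.05, with P taken here before adjustment, the counts were also 4 and 2, against 24.5% and 22.4% of all genes. The CPM of the 4 Model mice lay wholly above that of the 4 Ctrl mice for 5 genes and wholly below for 1, against 19.9% and 20.3% of all genes. The median log2 fold change of the 10 genes was 0.49, against 0.04 over all genes tested. Under scaling by library size alone, 1 gene was higher (Eda2r), against 1547 of all 17431 genes tested, and the medians were 0.06 and -0.39. The count of lower genes was 1 without any one of Ctrl 1, Ctrl 2, Ctrl 4, Model 2, Model 3, Model 4 or YHY 3, and the gene whose call was lost was Trp53.

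The comparison of YHY with Model asks which transcripts differ with the decoction in db/db mice. Of the 10 genes, 1 was higher in YHY (Trp53) and 2 were lower (Ccng1 and Zmat3), against 5.63% of all genes tested that were higher and 7.62% that were lower. By the limits of fold change and unadjusted P, 2 genes were higher and 5 lower, against 13.9% and 14.7% of all genes. The 4 YHY mice lay wholly above the 4 Model mice for 1 gene and wholly below for 4, against 6.83% and 9.28% of all genes. The median log2 fold change of the 10 genes was -0.24, against 0.02 over all genes tested. Without Model 3 or without Model 4 the count of higher genes was 0, and without Model 3 the number of genes called in the whole table was 1146, against 2311 with all mice.

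YHY mice were also set against Ctrl, a comparison that shares its mice with both of the others and that the study does not list. Here 2 of the 10 genes were higher (Cdkn1a and Mdm2) and 2 were lower (Ccng1 and Zmat3), against 26.1% and 24.2% of all genes tested. By the limits of fold change and unadjusted P, 3 were higher and 2 lower, against 29.4% and 26.6% of all genes. The YHY mice lay wholly above Ctrl for 3 genes and wholly below for 2, against 21.9% and 22.7% of all genes. The median log2 fold change was 0.28 for the 10 genes, turned to -0.13 with scaling by library size alone, and was 0.10 and -0.33 over all genes tested in the same way.

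**Figure D2:**
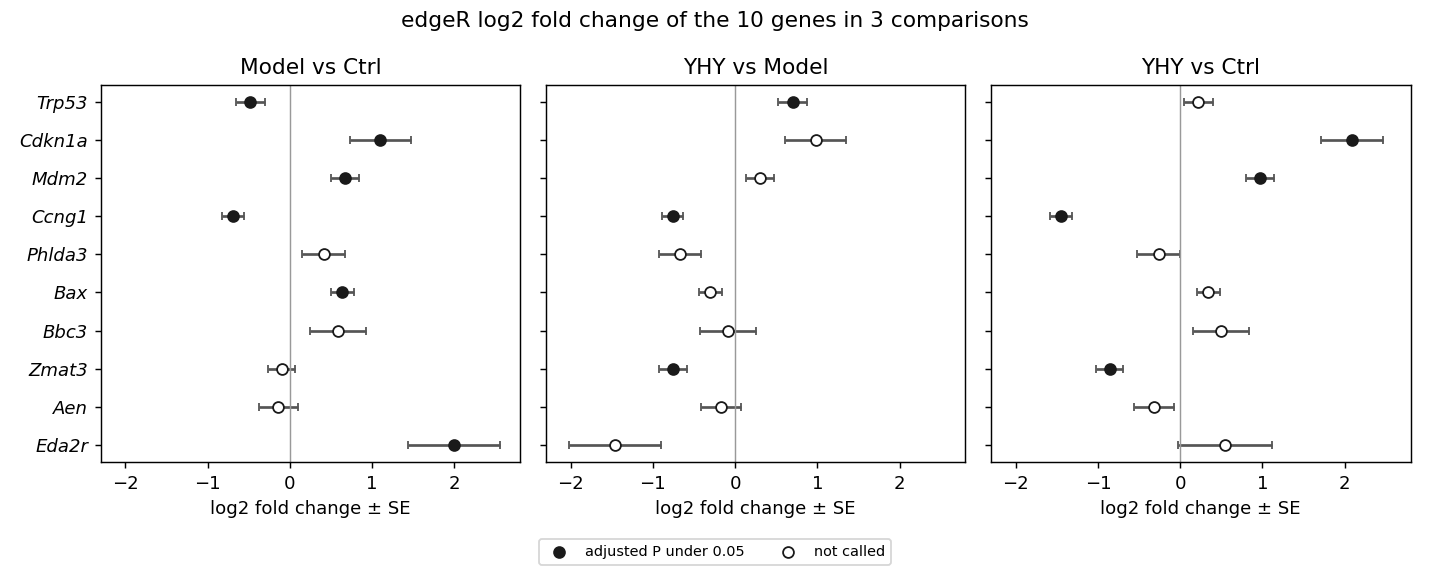
The log2 fold change of each gene from edgeR in 3 comparisons, with bars of 1 standard error, where filled points have an adjusted P under 0.05 and open points do not. Ccng1 lies below 0 with a filled point in all 3 panels (-0.69, -0.76 and -1.45), and Cdkn1a lies above 0 in all 3 (1.10, 0.98 and 2.09), with an open point for YHY against Model.

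Trp53, the gene of p53 (ENSMUSG00000059552, chromosome 11, 69471185 to 69482699 on the plus strand, in the coordinates of the deposited table, for which the submitters' processing notes name GRCm39), was the regulator of the group. Its level in Ctrl mice 1 to 4 was 22.6, 21.4, 18.1 and 20.9 CPM. In Model mice 1 to 4 it was 21.2, 15.0, 12.2 and 10.8 CPM. In YHY mice 1 to 4 it was 25.7, 24.2, 23.3 and 23.1 CPM. Model 1 lay within the Ctrl range and the other 3 Model mice below it, while each YHY mouse lay above each Model and each Ctrl mouse. Trp53 was lower in Model than in Ctrl, with a log2 fold change of -0.48 ± 0.18 (SE; edgeR adjusted P = 0.046), and the exact permutation test gave P = 0.0857. The fold change was -0.77 without Model 1 (edgeR adjusted P = 0.0011). The call was lost at fold changes of -0.49, -0.47 and -0.53 without Ctrl 1, Ctrl 2 or Ctrl 4 (edgeR adjusted P = 0.0896, 0.0820 and 0.0629), and at -0.49 without Model 2 (0.0854) or YHY 3 (0.0533). It was lost at the smaller fold changes of -0.40 and -0.36 without Model 3 or Model 4 (edgeR adjusted P = 0.136 and 0.146). It was also lost with upper-quartile scaling at -0.38 (edgeR adjusted P = 0.109) and when each mouse had to reach 10 counts at -0.44 (0.0568). In YHY, Trp53 rose over Model by 0.70 ± 0.18 on the log2 scale (edgeR adjusted P = 0.0205; exact permutation P = 0.0286). That call was lost at 0.61 without Model 3, at 0.57 without Model 4 and at 0.69 with scaling by library size alone (edgeR adjusted P = 0.0784, 0.0606 and 0.0914). Against Ctrl the YHY mice differed by 0.22 ± 0.18 (edgeR adjusted P = 0.34), although the ranges did not overlap and the permutation test gave P = 0.0286, and with scaling by library size alone the sign turned, to -0.21. Spread among mice also differed, with a coefficient of variation of 9.16% in Ctrl, 31.3% in Model and 5.01% in YHY.

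Mdm2, the ubiquitin ligase that marks p53 for degradation and is itself a p53 target (ENSMUSG00000020184, chromosome 10, 117524780 to 117546663, minus strand), was the feedback regulator of the group. Ctrl mice 1 to 4 had 23.0, 22.1, 19.8 and 26.6 CPM. Model mice had 31.6, 32.2, 39.5 and 42.5 CPM, and YHY mice 40.7, 60.9, 34.8 and 43.4 CPM, in the same order. All 8 db/db mice lay above all Ctrl mice, and the YHY and Model ranges overlapped. Mdm2 rose in Model by 0.67 ± 0.17 on the log2 scale (edgeR adjusted P = 0.00669; exact permutation P = 0.0286) and in YHY over Ctrl by 0.97 ± 0.17 (edgeR adjusted P = 0.000261). Between YHY and Model the difference was 0.30 ± 0.17 (edgeR adjusted P = 0.268). With scaling by library size alone the rise in Model was 0.23 and no longer called (edgeR adjusted P = 0.341), while the rise in YHY over Ctrl was 0.50 and called (0.0361).

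**Figure D3:**
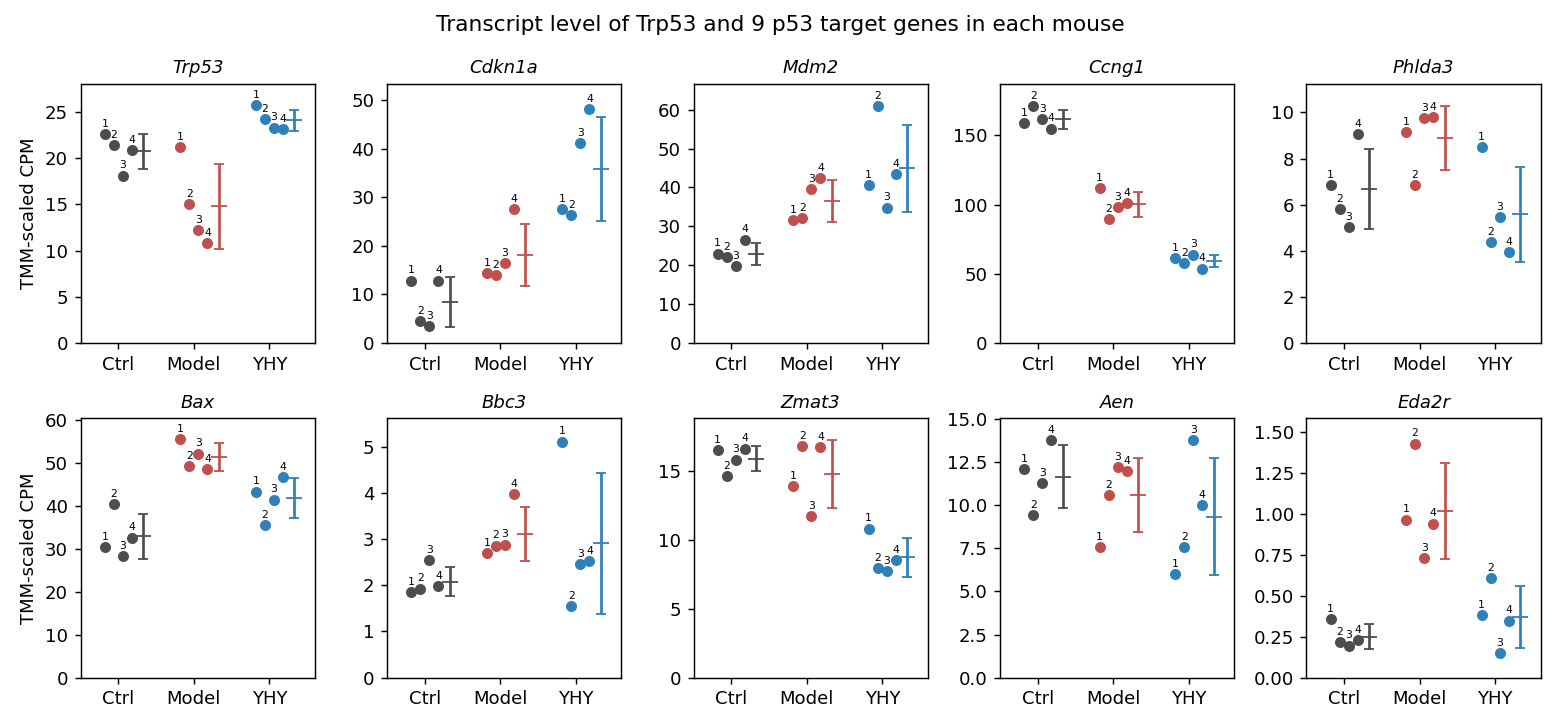
TMM-scaled CPM of the 10 genes in each of the 12 mice, numbered by replicate, with bars for the mean and 1 SD of each group of 4. For Ccng1 the 3 groups do not overlap (155 to 171, 89.6 to 112 and 53.8 to 63.9 CPM), and for Trp53 the Model mice spread from 10.8 to 21.2 CPM while the YHY mice lie between 23.1 and 25.7.

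Among the targets that act on the cell cycle, Cdkn1a encodes p21, an inhibitor of cyclin-dependent kinases (ENSMUSG00000023067, chromosome 17, 29309950 to 29319701, plus strand). Its level was 12.8, 4.46, 3.50 and 12.8 CPM in Ctrl mice 1 to 4, and 14.3, 14, 16.5 and 27.6 CPM in the Model mice. The YHY mice had 27.6, 26.3, 41.2 and 48.1 CPM. Ctrl fell into a lower and a higher pair of mice, every Model mouse lay above every Ctrl mouse, and of the Model mice Model 4 alone reached into the YHY range. Cdkn1a rose in Model by 1.10 ± 0.37 on the log2 scale (edgeR adjusted P = 0.029; exact permutation P = 0.0286) and in YHY over Ctrl by 2.09 ± 0.38, a fold of 4.25 (edgeR adjusted P = 0.000296). The rise in Model lost its call without Ctrl 2, Ctrl 3 or Model 4, with fold changes of 0.89, 0.80 and 0.82 (edgeR adjusted P = 0.0809, 0.0923 and 0.117). It also lost it over the 9 mice that make up the authors' deposited group means, at 0.94 (edgeR adjusted P = 0.0797), and with scaling by library size alone, at 0.64 (0.213). Between YHY and Model the difference was 0.98 ± 0.37 (edgeR adjusted P = 0.0902; exact permutation P = 0.0571). This difference passed the threshold with DESeq2 (adjusted P = 0.0441), and with edgeR when no filter was used (adjusted P = 0.00746), when the 8 mice were fitted alone (0.0297) and with the replicate number as a block (0.0467).

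Ccng1, which encodes cyclin G1, a cyclin that acts with a phosphatase on Mdm2 (ENSMUSG00000020326, chromosome 11, 40639379 to 40646138, minus strand), moved the other way. Its levels were 159, 171, 162 and 155 CPM in Ctrl mice 1 to 4, 112, 89.6, 98.2 and 101 CPM in Model mice and 61.2, 57.5, 63.9 and 53.8 CPM in YHY mice. The 3 groups were apart from each other, with Ctrl highest and YHY lowest. Ccng1 fell in Model by 0.69 on the log2 scale (SE 0.13, edgeR adjusted P = 0.000614) and in YHY it fell by a further 0.76 from the Model level (SE 0.13, edgeR adjusted P = 0.00203). Relative to Ctrl, the YHY mice had a log2 fold change of -1.45 ± 0.13 (edgeR adjusted P = 6.22e-07). These calls held in all 22 alternative settings, those that left out 1 mouse included. Within groups it was the steadiest of the 10 genes in Ctrl, with a coefficient of variation of 4.21%.

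Among the targets that act in cell death, Bax encodes the pore-forming effector of the mitochondrial apoptosis pathway (ENSMUSG00000003873, chromosome 7, 45111121 to 45116322, minus strand). The Ctrl mice had 30.4, 40.3, 28.2 and 32.6 CPM, the Model mice 55.5, 49.2, 52.1 and 48.5 CPM and the YHY mice 43.3, 35.5, 41.4 and 46.7 CPM. Model lay above both other groups without overlap, and YHY 2 lay within the Ctrl range. Bax rose in Model by 0.64 ± 0.14 on the log2 scale (edgeR adjusted P = 0.00207; exact permutation P = 0.0286), a call lost with scaling by library size alone, at 0.23 (edgeR adjusted P = 0.379). The difference of YHY from Model was -0.30 ± 0.14 (edgeR adjusted P = 0.174; exact permutation P = 0.0286). Against Ctrl it was 0.34 ± 0.14 in YHY and not called (edgeR adjusted P = 0.0509, just above the threshold). It passed the threshold in 8 of 22 alternative settings: with DESeq2 (adjusted P = 0.0448), with limma-voom (adjusted P = 0.011), and with edgeR under upper-quartile scaling (0.0107), without mitochondrial genes (0.0433), with 10 counts in every mouse (0.0194), over the 9 mice (0.0461), without Ctrl 2 (0.0170) and without YHY 2 (0.0267). With scaling by library size alone it turned to -0.06.

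Eda2r, a death-domain-lacking receptor of the tumour necrosis factor family that binds ectodysplasin A2 (ENSMUSG00000034457, chromosome X, 96377446 to 96420822, minus strand), was counted only 4 to 30 times per mouse. Its level was 0.360, 0.218, 0.196 and 0.228 CPM in Ctrl, 0.966, 1.43, 0.731 and 0.941 CPM in Model and 0.382, 0.608, 0.149 and 0.349 CPM in YHY, for mice 1 to 4 of each group. Every Model mouse lay above every mouse of the other groups, which overlapped each other. Eda2r was higher in Model by 2.00 ± 0.56 on the log2 scale, a fold of 3.99 (edgeR adjusted P = 0.0107; exact permutation P = 0.0286). The gene passed the filter on low counts only through the Model mice, so that the filter depended on the group with the higher level. With no filter, Eda2r had a fold change of 1.97 and an adjusted P nearer the threshold (edgeR adjusted P = 0.0462), and it was not tested when each mouse had to reach 10 counts. For YHY against Model the fold change was -1.46 ± 0.56 (edgeR adjusted P = 0.0975; exact permutation P = 0.0286), which passed the threshold with DESeq2 (adjusted P = 0.0476). For YHY against Ctrl it was 0.54 ± 0.57 (edgeR adjusted P = 0.457).

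Bbc3 encodes Puma, a BH3-only protein that frees Bax from its inhibitors (ENSMUSG00000002083, chromosome 7, 16042318 to 16052130, plus strand), and had 28 to 134 counts per mouse. The Ctrl mice lay between 1.85 and 2.55 CPM, the Model mice between 2.70 and 3.98 and the YHY mice between 1.55 and 5.11 CPM. Model was wholly above Ctrl (exact permutation P = 0.0286), but the log2 fold change of 0.58 ± 0.34 did not pass the adjusted test (edgeR adjusted P = 0.192). YHY spread across both other groups, with YHY 1 highest and YHY 2 lowest of all 12 mice, and its log2 fold change from Model of -0.09 ± 0.34 (edgeR adjusted P = 0.904) turned to 0.11 without YHY 2 and to 0.05 without Model 4. Aen, an exonuclease that takes part in the breakdown of DNA during apoptosis (ENSMUSG00000030609, chromosome 7, 78545602 to 78560957, plus strand), ranged over 9.42 to 13.8 CPM in Ctrl, 7.56 to 12.2 in Model and 5.99 to 13.8 in YHY. The groups of Aen overlapped in every pair, and its fold changes of -0.14 ± 0.24 in Model against Ctrl, -0.17 ± 0.24 in YHY against Model and -0.32 ± 0.24 in YHY against Ctrl were not called (edgeR adjusted P = 0.668, 0.69 and 0.286). With scaling by library size alone the last was -0.74 and called (edgeR adjusted P = 0.0355).

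Of the remaining targets, Phlda3 encodes a pleckstrin-homology protein that keeps the kinase Akt from the membrane (ENSMUSG00000041801, chromosome 1, 135693857 to 135696874, plus strand). It ranged over 5.04 to 9.06 CPM in Ctrl, 6.86 to 9.79 in Model and 3.95 to 8.51 in YHY. The ranges of neighbouring groups overlapped, and 3 of the 4 Model mice were higher than every other mouse. The log2 fold change was 0.41 ± 0.26 in Model against Ctrl (edgeR adjusted P = 0.226), with a turn of sign to -0.03 under scaling by library size alone and a call with limma-voom at 0.48 (adjusted P = 0.0468), and -0.67 ± 0.26 in YHY against Model (edgeR adjusted P = 0.103). Without YHY 1 the second difference was -0.95 and called (edgeR adjusted P = 0.0251).

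Zmat3, which encodes a zinc-finger protein that binds RNA and acts in splicing (ENSMUSG00000027663, chromosome 3, 32388941 to 32420163, minus strand), had 16.5, 14.6, 15.8 and 16.6 CPM in Ctrl mice 1 to 4. The Model mice had 13.9, 16.8, 11.7 and 16.7 CPM and the YHY mice 10.8, 7.91, 7.74 and 8.49 CPM. Model and Ctrl overlapped, and every YHY mouse lay below every mouse of the other groups. Zmat3 fell in YHY, with log2 fold changes of -0.76 ± 0.17 against Model (edgeR adjusted P = 0.00879) and -0.86 ± 0.16 against Ctrl (edgeR adjusted P = 0.000442), each with an exact permutation P of 0.0286. Scaling by library size alone left the first at -0.74 but not called (edgeR adjusted P = 0.0574, just above the threshold). Between Model and Ctrl the difference was -0.10 ± 0.16 (edgeR adjusted P = 0.646), and it was 0 with upper-quartile scaling.

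Ratios of levels per length were formed after the values were seen and are given as descriptions. Cdkn1a to Trp53 stood at 0.451 ± 0.257 in Ctrl (SD, n = 4), against 1.57 ± 0.952 in Model and 1.71 ± 0.577 in YHY, and all 8 db/db mice (0.769 to 2.92) lay above all Ctrl mice (0.221 to 0.698). Mdm2 to Trp53 stood at 0.879 ± 0.091 in Ctrl, against 2.15 ± 0.873 in Model and 1.49 ± 0.367 in YHY, and the db/db mice were again all above Ctrl. The ratio of Bax to Bcl2, the apoptosis inhibitor that binds Bax, stood at 15.1 ± 3.33 in Ctrl, against 34.9 ± 3.34 in Model and 26.7 ± 8.36 in YHY. Bcl2 itself was lower than in Ctrl, with log2 fold changes of -0.58 ± 0.17 in Model and -0.43 ± 0.17 in YHY (edgeR adjusted P = 0.0137 and 0.0446). This ratio therefore does not describe Bax alone. Ratios within a mouse do not depend on the scaling of its library.

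The 10 genes did not share a common pattern over the 12 mice. Profiles were compared as the root mean square difference of log2 CPM after each gene was centred on its mean. The closest of the pairs of members were Ccng1 and Zmat3 (0.347), Bax and Bbc3 (0.351) and Bax and Eda2r (0.366), and the furthest apart were Ccng1 and Cdkn1a (1.59). The pseudocount of 0.5 used here is near the level of Eda2r (0.149 to 1.43 CPM) and narrows its differences, so the closeness of Eda2r to Bax depends on it. Among the members, Trp53 was closest to Bax (0.564), which is near the median distance of other genes from Trp53 (0.572), and it lay at 1.08 from Cdkn1a. For pairs without Trp53 or Cdkn1a no such background was formed. Among 12845 other genes with a symbol and a mean of at least 50 counts, those most like Trp53 were Ufl1 (0.188), Ddx24 (0.204) and Ssb (0.206), where the median gene lay at 0.572. Those most like Cdkn1a were Gm53 (0.455), Wsb1 (0.471) and Fkbp5 (0.477), with a median of 1.13. Fkbp5, a co-chaperone of steroid receptors, had mean levels of 48.9, 95.9 and 141 CPM in Ctrl, Model and YHY, beside 8.41, 18.1 and 35.8 CPM for Cdkn1a.

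Genes of mitosis and DNA replication, which p53 is known to lower through p21, were described from a list of 22, all of which were tested. In Model, 18 of the 22 rose over Ctrl (19.6% of all genes tested), with a list median of 1.94 against 0.04 over all genes, and 4 did not pass the test (Ccnb1, Aurkb, Bub1 and E2f1). Cdc25c, at means of 0.0597, 1.1 and 0.0566 CPM in Ctrl, Model and YHY, could pass the filter on low counts only through the Model mice. With at least 10 counts in every mouse, 15 of the list were tested. Of these, 14 were higher in Model than in Ctrl (3088 of all 13623 genes), and 6 were lower in YHY than in Model (1328 of all genes). In YHY against Ctrl, 9 were higher (4077 of all genes). Mki67, whose protein marks cycling cells, had 3.53, 3.68, 2.55 and 1.82 CPM in Ctrl mice 1 to 4, 22.1, 24.2, 16.3 and 19.4 CPM in Model mice and 5.30, 4.87, 2.87 and 3.06 CPM in YHY mice. All Model mice were far above the other groups, which overlapped. Mki67 rose in Model by 2.82 ± 0.27 (edgeR adjusted P = 3.93e-06) and in YHY fell by 2.35 on the log2 scale from the Model level (SE 0.26, edgeR adjusted P = 0.000263). Kif23 and Plk1 rose in Model by 2.74 ± 0.32 and 3.20 ± 0.49 (edgeR adjusted P = 1.76e-05 and 0.000147). Cdc20, an activator of the anaphase-promoting complex, rose in Model by 2.45 ± 0.32 and fell in YHY by 1.69 from Model (edgeR adjusted P = 4.14e-05 and 0.00359). In YHY against Model, 8 of the 22 were lower (7.62% of all genes), with a median of -0.87 against 0.02 (-1.36 without YHY 2), and they included Cdk1 (-2.75 ± 0.45, edgeR adjusted P = 0.00171) and Ube2c (-1.93 ± 0.34, edgeR adjusted P = 0.00271). Not every gene of the list followed that course. Kif23, a kinesin of the midbody, had 3.00, 3.31, 1.89 and 2.09 CPM in Ctrl, 9.56, 19.3, 13.7 and 25.8 CPM in Model and 15.8, 32.1, 36.3 and 26.9 CPM in YHY. Kif23 was thus higher in all db/db mice than in Ctrl, with YHY over Ctrl at 3.43 ± 0.33 (edgeR adjusted P = 1.03e-06). In all, 9 of the 22 were higher in YHY than in Ctrl (26.1% of all genes), with a median of 0.94 against 0.10, among them Mybl2 (2.52), Plk1 (2.69) and Kif20a (1.66). That median was 0.59 without YHY 2, and 0.51 both with limma-voom and with scaling by library size alone. Without Ctrl 4, YHY 1 or YHY 2, 1 gene of the list was lower in YHY than in Ctrl. With scaling by library size alone, 14 of the 22 were higher in Model than in Ctrl (1547 of all 17431 genes). In YHY against Ctrl, 4 of the 22 were higher and 2 lower with that scaling (2365 and 5977 of all genes). Cdkn1a and most of these genes were thus both higher in Model than in Ctrl, and in YHY the called members of the list were lower than in Model while Cdkn1a stood at 0.98 ± 0.37 above it (edgeR adjusted P = 0.0902).

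Other inhibitors of cyclin-dependent kinases were tested in 6 of 7 cases, since Cdkn2a had too few counts. Cdkn1c, which encodes p57, had 11, 16.4, 17.2 and 15.6 CPM in Ctrl mice 1 to 4, 54.5, 42.8, 45.8 and 30.5 CPM in Model mice and 28.6, 25.2, 27.1 and 44.9 CPM in YHY mice. All db/db mice lay above Ctrl, and Cdkn1c rose by 1.53 ± 0.22 in Model and by 1.06 ± 0.21 in YHY over Ctrl (edgeR adjusted P = 7.85e-05 and 0.000666). Cdkn3, a phosphatase that acts on these kinases and itself peaks in dividing cells, rose in Model by 3.04 ± 0.58 (edgeR adjusted P = 0.000757) and was lower in YHY than in Model at -1.74 ± 0.55 (edgeR adjusted P = 0.0474). That second call was lost without any one of Ctrl 1, Ctrl 3, Model 1 to 4 or YHY 1 to 3 (edgeR adjusted P = 0.0548 to 0.112), with library size alone (0.0595), with the 8 mice (0.0504) and with the replicate block (0.098), which left 1 gene of the list lower in place of 2. The fold changes of Cdkn3 there were -1.47 to -1.88 without single mice, -1.74 with library size alone and -1.70 with the 8 mice and with the block. Cdkn1b, which encodes p27, was lower in Model at -0.46 ± 0.16 (edgeR adjusted P = 0.03). The call of Cdkn1b was lost at -0.36 with upper-quartile scaling (edgeR adjusted P = 0.0823). It was also lost, at fold changes of -0.42 to -0.49, without any one of Ctrl 3, Ctrl 4, Model 2, Model 3 or Model 4 (edgeR adjusted P = 0.053 to 0.0837), while 2 genes were lower without Ctrl 2. Cdkn2c, which encodes p18, was lower in YHY by both comparisons, at -1.32 ± 0.23 against Model and -1.47 ± 0.23 against Ctrl (edgeR adjusted P = 0.00254 and 7.8e-05). In Model against Ctrl, 2 of the 6 were higher and 1 lower (19.6% and 18.5% of all genes), with a median of -0.04 that turned to 0.07 with upper-quartile scaling (0.04 and 0.14 over all genes) and to 0.02 without Ctrl 2 or Model 4. It was -0.18 without Model 1 and -0.45 with scaling by library size alone (-0.39 over all genes). For YHY against Model, where 7.62% of all genes were lower, 2 of the 6 were, with a median of -0.54. For YHY against Ctrl, 1 was higher and 1 lower (26.1% and 24.2% of all genes), with a median of -0.13 that turned to 0.01 with upper-quartile scaling (0.10 and 0.22 over all genes) or limma-voom, to 0.05 without Ctrl 4 and to 0.04 without YHY 2. It was -0.33 without Ctrl 2 and -0.30 without YHY 1. With scaling by library size alone it was -0.53, with 3 lower (-0.33 and 5977 of 17431 over all genes). In that comparison, 2 were higher without Ctrl 2 or YHY 1, and 2 were lower without Ctrl 3 or YHY 3.

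Partners of Bax in the Bcl2 family, 12 genes in all, gave 4 higher and 3 lower for Model against Ctrl (19.6% and 18.5% of all genes), with a median of 0.23 that was 0.13 without Ctrl 1 and turned to -0.20 with scaling by library size alone, against 0.04 and -0.39 over all genes. Among the guardians that hold Bax in check, Bcl2l2 fell in Model by 0.92 on the log2 scale (SE 0.17, edgeR adjusted P = 0.000659) and was lower in YHY than in Ctrl at -0.79 ± 0.17 (edgeR adjusted P = 0.0012), whereas Bcl2l1, which encodes Bcl-xL, rose by 0.42 ± 0.12 (edgeR adjusted P = 0.0134). Bcl2l1 had 81.5, 71.9, 74.3 and 81.8 CPM in Ctrl, 104, 99.4, 106 and 103 CPM in Model and 76.1, 62.9, 65.9 and 68.7 CPM in YHY, and Model stood above both other groups. In YHY it fell by 0.60 from the Model level (SE 0.12, edgeR adjusted P = 0.00616). Its rise in Model turned to -0.02 with scaling by library size alone and lost its call at 0.39 and 0.35 without Ctrl 1 or Ctrl 3 (edgeR adjusted P = 0.0534 and 0.0842), at 0.39 with no filter (0.0947) and at 0.33 over the 9 mice (0.0759). Of the BH3-only genes, Bmf, with means of 5.14, 9.82 and 11.1 CPM in Ctrl, Model and YHY, was higher in both db/db groups than in Ctrl (edgeR adjusted P = 0.01 and 0.002). The first call, at 0.93 ± 0.26, was lost at 0.80 without Ctrl 1 (edgeR adjusted P = 0.0518) and at 0.50 with scaling by library size alone (0.198). Without Ctrl 1, 1 of the 12 genes was higher in Model, and with scaling by library size alone also 1, where 1547 of all 17431 genes were higher. Hrk was called higher in Model, but its mean in Ctrl was 0.0342 CPM, too near 0 for a fold. It is counted among the 4 genes higher in Model and the 2 higher in YHY than in Ctrl. At 0 CPM in Ctrl 1, Ctrl 2 and Ctrl 3, Hrk could pass the filter on low counts only through db/db mice. With at least 10 counts in every mouse, 11 genes of the list were tested and 3 were higher in Model (3088 of all 13623 genes). Bid and Bad were lower in YHY than in Ctrl, at -1.23 ± 0.27 and -0.99 ± 0.24 (edgeR adjusted P = 0.00146 and 0.00262). In YHY against Model, 2 of the 12 were lower (7.62% of all genes) with a median of -0.40 (-0.25 without YHY 1), Bcl2l1 and Bad (-0.83 ± 0.24, edgeR adjusted P = 0.0317). In YHY against Ctrl, 2 were higher and 4 lower (26.1% and 24.2% of all genes) with a median of -0.13, and 1 was higher without Ctrl 1, Ctrl 3 or YHY 4. This median was 0 with upper-quartile scaling, -0.32 without YHY 1 and -0.07 without YHY 3. With scaling by library size alone it was -0.52, with 6 lower (-0.33 and 5977 of 17431 over all genes). The count of lower genes in YHY against Model was 1 without any one of Model 2, Model 3, Model 4 or YHY 2, when the call of Bad was lost (edgeR adjusted P = 0.0545 to 0.0913), and Bad also lost its call without YHY 1 or YHY 4 (0.073 and 0.0581). Both calls were lost with scaling by library size alone, at fold changes of -0.58 and -0.79 (edgeR adjusted P = 0.0829 and 0.0811), and that of Bad was also lost with the 8 mice (0.0858), the 9 mice (0.0631) and limma-voom (adjusted P = 0.0908).

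A wider list of 44 further p53 targets held 43 tested genes, Spata18 having too few counts. In Model, 14 rose and 6 fell (19.6% and 18.5% of all genes), with a median log2 fold change of 0.19 that turned to -0.24 with scaling by library size alone, against 0.04 and -0.39 over all genes. By role, 3 of 7 tested targets in cell cycle arrest rose, with a median of 0.71. In the role listed as DNA repair 3 of 6 rose and 1 fell (median 0.43). Fbxw7 was among these 3, although it encodes a ubiquitin ligase component, so this count is not one of repair genes alone. In metabolism 3 of 9 rose and 1 fell (0.44), and in cell death 3 of 9 rose and 1 fell (-0.15). Of the 7 targets with other roles, 2 rose and 3 fell (0.10), while the 3 secreted factors (0.01) and the 2 autophagy genes (-0.36) did not pass the test. Fdxr, the mitochondrial ferredoxin reductase, had 9.46, 11.2, 9.97 and 9.40 CPM in Ctrl mice 1 to 4, 24.1, 39.3, 31.6 and 40.6 CPM in Model mice and 32.4, 34.7, 39.2 and 25.6 CPM in YHY mice. Both db/db groups lay above Ctrl and overlapped each other, and Fdxr rose by 1.76 ± 0.18 in Model and by 1.72 ± 0.18 in YHY over Ctrl (edgeR adjusted P = 7.32e-06 and 2.37e-06). Fbxw7, a ubiquitin ligase component, rose in Model by 1.27 ± 0.18 (edgeR adjusted P = 7.34e-05). Perp, a desmosomal protein and death effector, had 63.3, 64.8, 66.8 and 52.6 CPM in Ctrl, 34.7, 17.8, 25.4 and 21.9 CPM in Model and 19.3, 17.6, 15.2 and 18.5 CPM in YHY. It fell in Model by 1.31 and in YHY by 1.81 from the Ctrl level (SE 0.18 for both, edgeR adjusted P = 6.48e-05 and 1.8e-06), all db/db mice lying below Ctrl. Dglucy, a mitochondrial D-glutamate cyclase, was lower in Model at -1.51 ± 0.23 and in YHY at -2.35 ± 0.23 against Ctrl (edgeR adjusted P = 0.000121 and 1.53e-06). Plk3, a stress-responsive kinase, was higher in YHY than in Ctrl by 3.59 ± 0.43 (edgeR adjusted P = 7.28e-06), although the 4 YHY mice spread over 37.9, 113, 18.2 and 71.9 CPM. In YHY against Ctrl, 21 of the 43 were higher and 9 lower (26.1% and 24.2% of all genes), with a median of 0.56 against 0.10. That median was 0.11 with scaling by library size alone (-0.33 over all genes) and 0.30 with at least 10 counts in every mouse (0.07 over all genes). The number higher in Model was 9 without Ctrl 3. With scaling by library size alone, Model had 8 higher and 13 lower against Ctrl (1547 and 5667 of all 17431 genes). YHY had 10 higher and 12 lower against Ctrl with that scaling (2365 and 5977 of all genes).

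Between YHY and Model, 2 of the 43 further targets rose and 4 fell (5.63% and 7.62% of all genes), with a median of 0.13 against 0.02. Sesn1, a stress-induced inhibitor of mTOR signalling, rose by 0.79 ± 0.21 (edgeR adjusted P = 0.0239), and Ei24 and Triap1 fell by 0.69 and 0.78 on the log2 scale (SE 0.13 and 0.20, edgeR adjusted P = 0.00393 and 0.0172). The call of Sesn1 was lost without Model 3, Model 4 or YHY 2 (edgeR adjusted P = 0.0816, 0.0558 and 0.0634, the last at 0.49) and that of Triap1 without Model 3 or Model 4 (0.0544 and 0.0546). Triap1 also lost it at -0.79 with library size alone (edgeR adjusted P = 0.0712), at -0.74 with the 8 mice (0.0536) and at -0.74 with limma-voom (adjusted P = 0.0792). Dglucy was lower by -0.84 ± 0.22 (edgeR adjusted P = 0.0222), a call lost without Model 1, YHY 1 or YHY 3 (0.059, 0.0582 and 0.0554), at -0.80 with the 8 mice (0.0587) and at -0.70 over the 9 mice (0.0672). When each mouse was left out in turn, the counts ran from 0 to 4 for higher and from 2 to 5 for lower. Higher genes numbered 0 without Model 3 or YHY 2, 1 without Model 1 or Model 4, and 4 without YHY 1, YHY 3 or YHY 4, and lower genes numbered 2 without Model 1, Model 3, YHY 1 or YHY 3. Other settings gave 6 higher with DESeq2, 4 with no filter or with 10 counts in every mouse, 1 with limma-voom, and 11 higher and 7 lower by the limits of fold change and unadjusted P. Lower genes numbered 2 with scaling by library size alone and 1 with the 8 mice.

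Regulators of p53 were described from a list of 31, of which 29 were tested and Trp73 and Cdkn2a were not. In Model, 6 stood above and 4 below Ctrl past the threshold (19.6% and 18.5% of all genes), with a median of 0.06 that turned to -0.38 with scaling by library size alone, against 0.04 and -0.39 over all genes. That median was also below 0 without Ctrl 1 or Ctrl 2 (-0.01 for both), Ctrl 4 (-0.07) or Model 1 (-0.02) and over the 9 mice (-0.06), and 0 without Ctrl 3. Mdm4, a relative of Mdm2 that binds and holds back p53, had 24.3, 27.7, 20.7 and 22.6 CPM in Ctrl mice 1 to 4, 36.4, 58.7, 55.1 and 54.1 CPM in Model mice and 60.8, 80.9, 78.5 and 142 CPM in YHY mice. The 3 groups of Mdm4 did not overlap. It rose by 1.10 ± 0.23 in Model, by 0.83 ± 0.23 in YHY over Model and by 1.92 ± 0.23 in YHY over Ctrl (edgeR adjusted P = 0.00139, 0.0246 and 7.47e-06). The rise over Model lost its call without Model 1, Model 3 or YHY 4 (edgeR adjusted P = 0.0661, 0.0582 and 0.0557, the last at 0.52) and over the 9 mice of the deposited means, at 0.40 (0.0802). Of the 7 tested genes of the list that act on p53 through ubiquitin, 1 (Mdm4) was higher and 3 were lower in Model. The ligases Rchy1 and Cop1 were lower at -1.05 ± 0.15 and -0.71 ± 0.15 in Model, and both at -0.97 ± 0.15 in YHY against Ctrl (edgeR adjusted P = 7.32e-05, 0.00149, 5.57e-05 and 6.2e-05). The ligase Huwe1 rose in YHY over Model by 0.51 ± 0.14 (edgeR adjusted P = 0.0221). Trp53bp1, which binds p53 and marks DNA breaks, rose in Model by 0.75 ± 0.16 and in YHY over Ctrl by 1.32 ± 0.16 (edgeR adjusted P = 0.00168 and 7.69e-06), the first call being lost with scaling by library size alone, at 0.29 (0.234). Between YHY and Model, 7 of the 29 regulators rose (5.63% of all genes), with a median of 0.36 against 0.02 over all genes. They included the deacetylase Sirt1 (0.95 ± 0.23) and the methyltransferase Setd7 (0.70 ± 0.17; edgeR adjusted P = 0.0146 and 0.0161), Sirt1 being at 0.59 without YHY 4. This count was 2 without Model 1, 3 without Model 3, 4 without Model 2 or without YHY 2, and 2 with scaling by library size alone. By the limits of fold change and unadjusted P, 11 were higher and 1 lower. The call of Huwe1 was lost without Model 1 or Model 3 (edgeR adjusted P = 0.0503 and 0.078), at 0.50 with no filter (0.0621) and at 0.45 over the 9 mice (0.0547). Huwe1 at 0.52 and Setd7 at 0.69 lost their calls with scaling by library size alone (edgeR adjusted P = 0.08 and 0.0586). Against Ctrl, 11 regulators were higher and 5 lower in YHY (26.1% and 24.2% of all genes), with a median of 0.38 that turned to -0.04 with scaling by library size alone, against 0.10 and -0.33 over all genes, which leaves the list 0.28 and 0.29 above them. These differences agree largely because a change of scaling moves all genes alike. That scaling gave 1 higher and 10 lower for Model against Ctrl (1547 and 5667 of all 17431 genes). For YHY against Ctrl it gave 3 higher and 6 lower (2365 and 5977 of all genes). The count higher in YHY than in Ctrl was 17 with upper-quartile scaling, with 10 counts in every mouse and by the limits of fold change and unadjusted P.

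**Figure D4:**
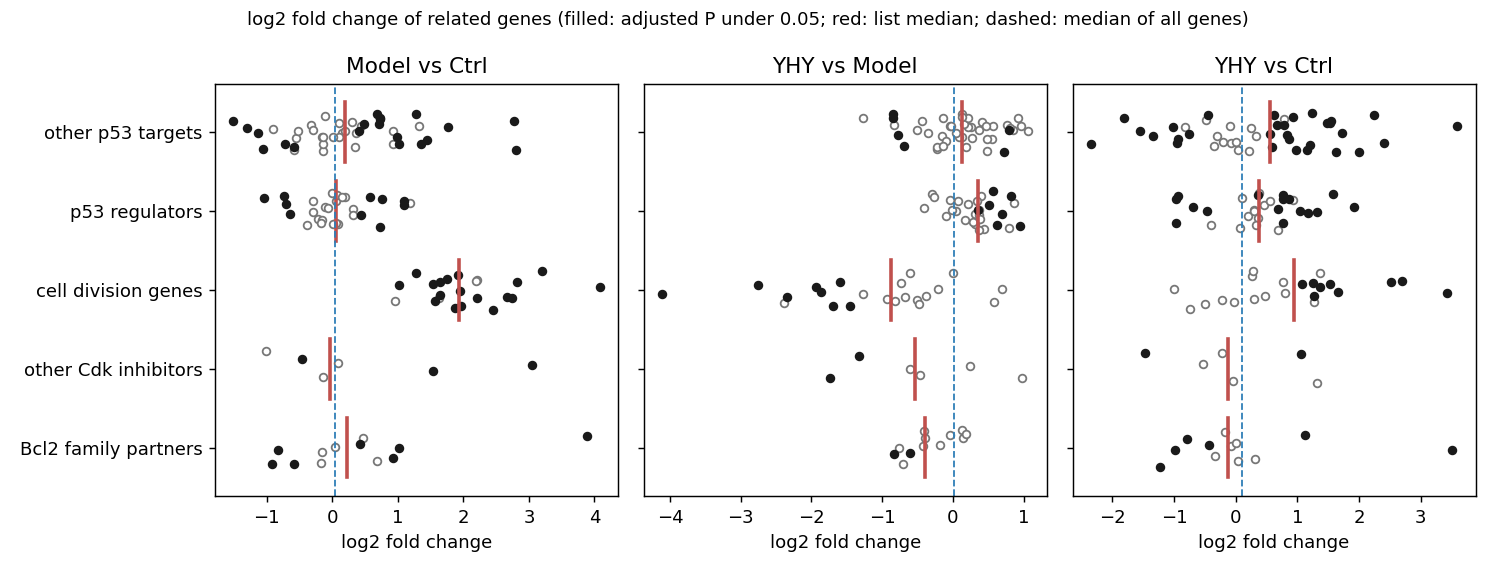
The log2 fold change of each tested gene in 5 lists related to p53, in 3 comparisons, where filled points have an adjusted P under 0.05, red bars are list medians and dashed lines the median of all genes tested. Cell division genes lie to the right in Model against Ctrl (median 1.94) and to the left in YHY against Model (median -0.87), and to the right in YHY against Ctrl (0.94), while the medians of the other 4 lists lie between -0.54 and 0.56, of which 4 above 0 turn below 0 with scaling by library size alone (targets, regulators and Bcl2 partners in Model against Ctrl, regulators in YHY against Ctrl).

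Because mitochondrial transcripts took such different shares, the fold changes were also set against the median of all genes under each way of scaling. Scaling by library size alone shifted that median by -0.43 in both comparisons with Ctrl, and upper-quartile scaling shifted it by 0.10 and 0.12. A change of scaling moves all genes of a comparison by nearly the same amount, which subtracting the median removes. The paired values below therefore agree largely by construction and do not test the difference in composition. Relative to the median, Cdkn1a lay at 1.06 in Model against Ctrl with TMM and at 1.03 by library size alone. Mdm2 lay at 0.63 and 0.62, Bax at 0.60 and 0.62, Trp53 at -0.52 and -0.50 and Ccng1 at -0.73 and -0.72 in the same way. Between YHY and Model, where the median moved by no more than 0.02, Trp53 lay at 0.68 and 0.66, Zmat3 at -0.78 and -0.77 and Ccng1 at -0.78 and -0.79. Removing the 37 genes of the mitochondrial genome before scaling left the fold changes of the 10 genes in Model against Ctrl within 0.01 of those with TMM.

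**Figure D5:**
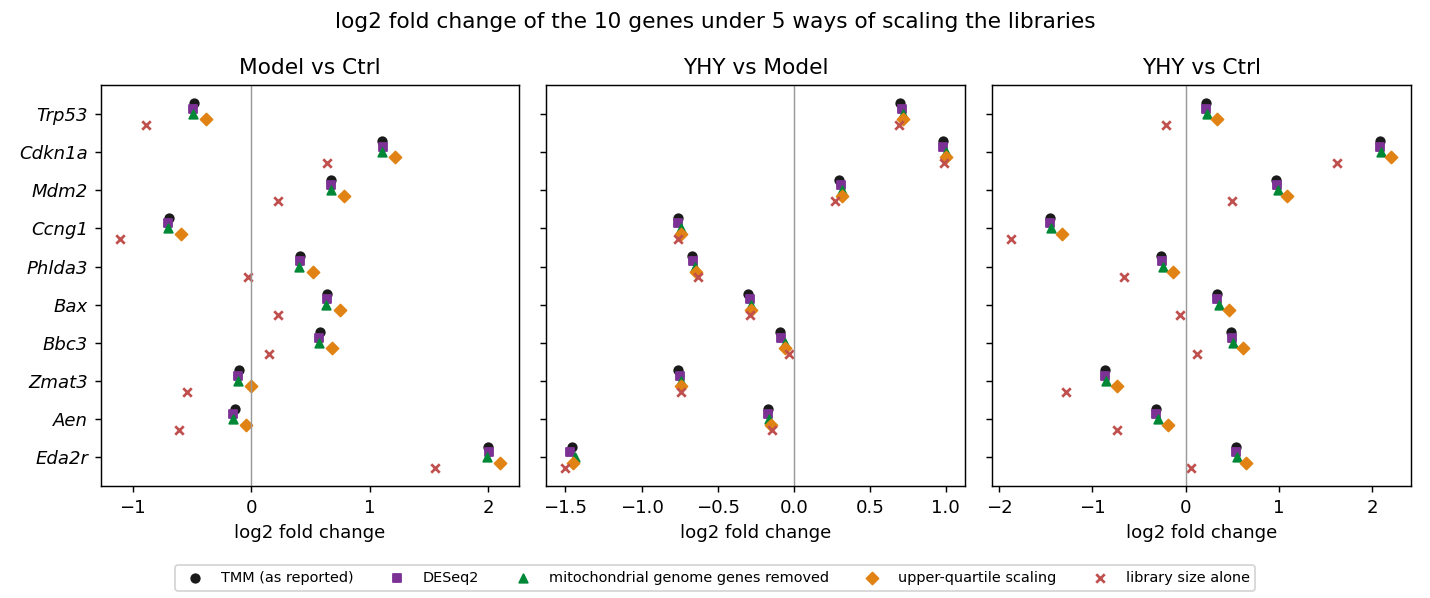
The log2 fold change of the 10 genes under 5 ways of scaling the libraries, in 3 comparisons. TMM, DESeq2 and TMM without mitochondrial genes coincide, while scaling by library size alone moves all genes to the left in both comparisons with Ctrl (Cdkn1a from 1.10 to 0.64 and from 2.09 to 1.63) and hardly in YHY against Model, and turns Phlda3 (-0.03) in Model and Trp53 (-0.21) and Bax (-0.06) in YHY below Ctrl.

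Markers of kidney cells and nuclear RNA differed between the groups, and their part in the results was not tested. In bulk tissue, fewer cells of a type and less RNA per cell cannot be told apart. The counts of called markers below stand beside these shares of all genes tested. For Model against Ctrl 19.6% were higher and 18.5% lower. For YHY against Ctrl they were 26.1% and 24.2%, and for YHY against Model 5.63% and 7.62%. Markers of the proximal tubule, 8 genes led by Miox, summed to 1920 ± 474 FPKM in Ctrl (SD, n = 4), against 1340 ± 265 in Model and 893 ± 393 in YHY, and 3 of the 8 were lower in Model than in Ctrl and 1 was higher and 5 were lower in YHY than in Ctrl. Loop of Henle markers (3 genes, led by Umod) summed to 531 ± 147, 208 ± 43.1 and 305 ± 122 FPKM and collecting duct markers (6 genes, led by Aqp2) to 640 ± 284, 300 ± 70.4 and 264 ± 130, with 2 of 3 and 3 of 6 lower in Model than in Ctrl. Markers of the distal convoluted tubule (3 genes, led by Pvalb) summed to 122 ± 38.1, 174 ± 41.5 and 87.9 ± 33.5 FPKM, with 1 of the 3 higher in Model and 1 lower in YHY than in Model. Injury markers of the tubule (5 genes, led by Lcn2) were low, at 5.61 ± 3.48, 2.79 ± 0.64 and 7.77 ± 4.11 FPKM, with 1 of the 5 lower in Model and 1 higher in YHY than in Model. In YHY against Ctrl, 1 of the 5 was lower and 0 were higher. The gene lower in Model was Havcr1, at means of 3.14, 0.109 and 0.0282 CPM in Ctrl, Model and YHY, which did not follow the sum. Havcr1 could pass the filter on low counts only through the Ctrl mice. Sums for other cells were 24, 24.6 and 25.4 FPKM for endothelium (4 genes, led by Emcn), 38.3, 43.9 and 50.1 for fibroblasts and mural cells (5 genes, led by Acta2, 2 of them higher in Model), and 45.5, 33 and 42.9 for macrophages (5 genes, led by C1qa, 1 higher and 2 lower in Model). Lymphocyte markers (5 genes, 3 of them tested, led by Jchain, 1 lower in Model) summed to 2.90, 0.770 and 3.76 FPKM and erythroid genes (4, led by Hba-a1, 1 higher and 2 lower in Model) to 579, 470 and 849 FPKM. In YHY against Ctrl, 4 collecting duct markers and 1 loop marker were lower, and of the distal tubule markers 1 was higher and 1 lower. In the same comparison, 2 fibroblast and mural markers and 2 erythroid genes were higher, and of the macrophage markers 1 was higher and 1 lower. In YHY against Model, 1 collecting duct marker was lower, and 1 lymphocyte marker and 1 erythroid gene were higher. Adipocyte markers (3 genes, led by Cfd) reached at most 0.377 FPKM in a mouse and were not tested. Not every marker list is given, and markers outside the lists given here also differed between the groups. Nuclear-retained RNA (3 genes, led by Malat1) summed to 27.8 ± 4.06 FPKM in Ctrl, against 61.1 ± 19.1 in Model and 112 ± 13.7 in YHY, without overlap between groups. All 3 genes were higher in both db/db groups than in Ctrl, and 2 of the 3 in YHY than in Model. Of the 10 genes, the means of Cdkn1a and Mdm2 had the same order of Ctrl, Model and YHY, and those of Ccng1, Zmat3 and Aen the reverse. The means of Trp53, Bax, Bbc3, Eda2r and Phlda3 had neither order. The share of all genes with such an order was not computed, and the part of this RNA was not tested.

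Counts could be shared with neighbouring or similar genes, because the use of strand in the counting is not given in the sources used here. Trp53 overlaps a long non-coding RNA on the opposite strand over 324 bases (ENSMUSG00000121121), which had 0 to 15 counts per mouse, and the pseudogene Trp53-ps on chromosome 17 had 1 to 23, against 252 to 939 for Trp53. Genes that overlap Cdkn1a (1700023B13Rik, 1046 bases) and Bax (Gm45808, 915 bases) had 0 counts in every mouse. The authors' deposited group means matched those of 9 mice (Ctrl 1, 3 and 4, Model 2, 3 and 4, YHY 1, 2 and 3). Over these 9 mice, of the calls made with all mice, only that of Cdkn1a in Model against Ctrl was lost among the 10 genes.

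These are transcript levels in bulk tissue from 4 mice per group, and neither p53 protein nor its binding was measured. The 3 comparisons share mice and are not independent of each other. Mitochondrial share, tubule markers and nuclear-retained RNA differ between the same groups, and their part was not tested.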

How the data were processed

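Kidney mRNA of 12 mice was sequenced, and mice were assigned to Ctrl, Model and YHY by the sample labels. The authors deposited a table of raw read counts for 57490 genes in each mouse, with gene lengths and coordinates. The submitters' processing notes name FastQC 0.11.9, Trimmomatic 0.39, HISAT2 2.2.1, SAMtools 1.12, featureCounts 2.0.1, DESeq2 1.34.0, R 4.1.2 and the build GRCm39, without their roles. The authors also deposited comparison tables with group means as a normalized signal, which were used only to find the mice behind them. Those tables also hold log2 fold changes, p-values and 12 columns per mouse, and other tables hold KEGG enrichment, none of which was used. Which of the doses in the paper was given to the sequenced mice is not stated in its text.

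Genes were filtered with filterByExpr, scaled by TMM and tested with the edgeR 4.0.16 quasi-likelihood test (glmQLFit and glmQLFTest, 9 residual degrees of freedom) in R 4.3.3, over 17431 genes. CPM and FPKM were computed from the counts. The steps were tested on simulated counts with 200 changed genes. Alternatives were DESeq2 1.42.0, limma 3.58.1 (voom with quality weights), upper-quartile scaling, library size alone, removal of mitochondrial genes, no filter, at least 10 counts in every mouse, only the 8 mice compared, only the 9 mice of the deposited means, a block for the replicate number, omission of single mice, and calls at over 1.2-fold and P under 0.05 before adjustment. Their use on the related lists was added after the data were seen. Members and lists were chosen with earlier results of these data known. All 10 members are named, and of each related list up to 4 genes per comparison, those with the smallest adjusted P among the called; other genes named were chosen after their values were seen. Likeness used log2 CPM with a pseudocount of 0.5. Figures came from matplotlib 3.10.9 under Python 3.11.15 with pandas 2.3.3 and numpy 2.4.6. In R, data.table was version 1.17.8.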

Additional observations from a re-analysis of the deposited data

Results flagged for a closer look

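The level of Bbc3 in Model 4 was 3.98 CPM, far from the other 3 Model mice, which lay between 2.70 and 2.88 CPM. Its gap to the nearest mouse was 0.864 of the range of the group, above Dixon's 95% critical value for 4 samples. Of 30 groups of 4 mice examined for the 10 genes, this was the 1 that stood out, where chance gives about 1 in 20. Without Model 4 the log2 fold change of Bbc3 in YHY against Model was 0.05.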

How the results depend on the processing

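Of the fold changes of the 10 genes under the alternative settings, 614 kept direction and side of the threshold, 16 gained a call, 20 lost one and 6 changed sign. Genes lower in Model than in Ctrl numbered 2, but 1 with upper-quartile scaling, 1 with at least 10 counts in every mouse and 1 to 2 when each mouse was left out in turn; 4 were higher, but 1 with library size alone. In YHY against Model 1 gene was higher, but 2 by fold change and unadjusted P, with DESeq2, with no filter, with only the 8 mice and with the replicate block, 0 with library size alone, and 0 to 1 when each mouse was left out. There, 2 were lower, but 5 by fold change and unadjusted P and 1 with library size alone. Signs turned with library size alone for Phlda3 (-0.03) in Model against Ctrl and for Trp53 (-0.21) and Bax (-0.06) in YHY against Ctrl, and for Bbc3 in YHY against Model when mice were left out (-0.51 to 0.11). Zmat3 in Model against Ctrl was 0 with upper-quartile scaling, which the script counts among the 6. The cause was not tested.

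Over all genes, calls in YHY against Model numbered 2311, but 4988 by fold change and unadjusted P, 1177 with library size alone and 1385 with only the 8 mice. With library size alone, 21.4% of the calls for Model and 28.4% of those for YHY against Ctrl were higher, in place of 51.5% and 51.9%. Replicate numbers did not pair the mice: mice of the same number correlated in their deviations from the group means at -0.21 to 0.17, over 0.1 in 2 of 12 pairs, and 3 of 12 mice were closest to their own number. With the replicate block, members higher and lower were 4 and 2, 2 and 2, and 2 and 2 in the 3 comparisons. On the related lists, 594 counts stayed within 1.5 times and 96 did not, and of their named genes 1099 values kept their call, 59 lost it and 1 changed sign (Bcl2l1 in Model against Ctrl, -0.02 with library size alone). Eda2r, at 4 to 30 counts, gave no value with at least 10 counts in every mouse, nor in YHY against Ctrl with only the 8 mice. Eda2r and Bbc3 (28 to 134 counts) had the fewest counts, and the other 8 genes had at least 79 counts in every mouse. The part of depth in the spread of these genes was not tested.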
